A study of Homo sapiens with 10 samples.

Results

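A group of 10 genes of mucus-secreting epithelium was followed in 2 lung cancer lines, out of 58037 gene identifiers in the deposited tables. The genes were *SPDEF*, *CREB3L1*, *MUC5AC*, *MUC5B*, *MUC2*, *MUC1*, *MUC13*, *MUC16*, *AGR2* and *TFF3*. They were taken by symbol and matched to the Ensembl identifier, in the RNA tables and in the gene column of the m6A peak lists. The set was chosen with its A549/DDP against A549 values known, so these values are a description, and no p-value is given for any of the 10 genes.

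Mucins are long proteins whose serine- and threonine-rich repeats carry dense O-linked sugars. MUC5AC and MUC5B are the gel-forming mucins of airway mucus and MUC2 is that of the gut, whereas MUC1, MUC13 and MUC16 are anchored in the cell membrane. In goblet cells the ETS-family transcription factor SPDEF drives the secretory programme, the endoplasmic reticulum (ER) protein AGR2 is needed for mucin folding, and trefoil peptides such as TFF3 are released together with mucins.

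A549 is a human lung adenocarcinoma line, and A549/DDP is a derivative resistant to cisplatin (DDP). Each line gave 2 input libraries, of RNA not pulled down, and 2 m6A-seq libraries, in which an antibody against N6-methyladenosine (m6A) pulls down RNA fragments and a peak is a stretch with more reads than in the input. Both lines were grown in RPMI 1640 with fetal bovine serum and were not treated, the cells were at low passage, and the comparison is of 1 parental with 1 resistant line. The labels of the A549/DDP inputs name the resistant line in the title and the cell type and A549 as the cell line. A second pair of A549 inputs, with labels that differ by a full stop, is given beside the others where it bears on a value.

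The inputs of A549 and A549/DDP held between 29225501 and 35286514 expected counts. The second A549 pair held 855034 and 982036, of which 75.2% and 73.9% lay on mitochondrial genes, so its levels per library are low for most nuclear genes. A549 was derived from the lung, but among the 9 alveolar type II markers the surfactant genes *SFTPA1*, *SFTPA2* and *SFTPC* had 0 counts in every input of both lines. The lipid transporter gene *ABCA3* made up most of that list and was 1.04 higher in A549/DDP on the log2 scale (SE 0.19, adjusted p = 0.0188, edgeR). The summed level of the list was 16.8 and 19.3 TPM (a level scaled for transcript length and library size) in A549 and 39.9 and 24.2 TPM in A549/DDP. The 6 epithelial markers summed to 8621 TPM or more in each of these 4 inputs, mostly from keratins, and moved with the contrast. *CDH1* (2.26), *KRT8* (1.57) and *KRT18* (1.18) were past the threshold and higher in A549/DDP on the log2 scale, and *KRT7* (-1.66) was lower. *KRT19* (-3.30, SE 1.62, adjusted p = 0.221) and *EPCAM* (-0.07) were not past it. Their part in the levels of the secretory genes was not tested. Of 8 immune and endothelial markers, *CD3E* and *MS4A1* had 0 counts in the 4 inputs. The monocyte-lineage marker *CD68*, a lysosomal protein also made by many tumour lines, held nearly all of that list's 129 to 157 TPM. The 6 fibroblast markers summed to between 3.48 and 22.03 TPM.

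*SPDEF* (chr6:34537802-34556329, minus strand, GRCh38) was not seen in A549. It had 0 counts in both A549 inputs and 0 counts in both inputs of the second pair. In the A549/DDP inputs it had 1021 and 1318 counts, or 29.9 and 33.2 TPM. The groups did not overlap. Set against 3 counts per library as the detection floor in A549, the mean of 36.9 CPM (counts scaled to library size, here the library total) in A549/DDP was at least 429-fold higher. Against the shallow second pair the same calculation gave at least 11.2-fold. The 163 tested genes with 0 counts in both A549 inputs passed the filter on low counts only through A549/DDP. Ordered by the lower of their A549/DDP CPM, *SPDEF* ranked 1, which is a description of a gene chosen on this contrast. In bulk RNA, more cells with the transcript and more transcript per cell cannot be told apart.

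The promoter windows of *SPDEF* and of *AGR2* are shown because both genes were higher in A549/DDP and because ETS factors bind a GGAA or GGAT core. Each line gives the 250 bases before the RefSeq start of the gene, 5′ to 3′ on the gene's strand (GRCh38.p14), at chr6:34556330-34556579 for *SPDEF* and at chr7:16805000-16805249 for *AGR2*, both on the minus strand. Capitals mark GGAT on either strand. In *SPDEF* a GGAT overlaps the same core on the other strand.
SPDEF: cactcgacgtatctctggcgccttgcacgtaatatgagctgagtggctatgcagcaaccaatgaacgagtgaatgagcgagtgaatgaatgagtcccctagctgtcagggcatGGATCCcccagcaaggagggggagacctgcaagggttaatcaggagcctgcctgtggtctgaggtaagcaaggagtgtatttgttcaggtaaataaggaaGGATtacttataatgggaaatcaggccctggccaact
AGR2: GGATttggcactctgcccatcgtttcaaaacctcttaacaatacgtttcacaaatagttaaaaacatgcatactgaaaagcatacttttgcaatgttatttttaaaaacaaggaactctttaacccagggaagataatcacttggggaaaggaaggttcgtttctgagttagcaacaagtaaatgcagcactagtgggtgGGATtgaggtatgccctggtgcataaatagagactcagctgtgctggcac
The window of *SPDEF* held 3 matches to GGAT and 2 to GGAA, and that of *AGR2* held 2 and 4. Among all 35116 RefSeq windows of this length 70.7% held GGAT and 92.7% held GGAA on either strand, so either core is common. CCAAT, present in the *SPDEF* window, was in 32.0% of all windows. TATAAA was in 10.7% of all windows and, among the 7 genes with a window, was found in that of *MUC1*. *MUC5B*, *MUC5AC* and *TFF3* had no entry.

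*CREB3L1* (chr11:46277662-46321409) encodes an ER-anchored transcription factor that is released by proteolysis and acts on genes of secretion. It had 81 and 22 counts in A549 and 38 and 56 in A549/DDP. Its levels were 2.21 and 1.82 TPM in A549 and 5.34 and 1.48 TPM in A549/DDP, so the groups overlapped on both scales. The fitted log2 fold change was -0.09 with a standard error (SE) of 1.45, and it was 1.198 without the first A549 input and -0.78 without the second.

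*MUC5AC* and *MUC5B* lie next to each other on chromosome 11 and were the most abundant of the mucins in A549/DDP. *MUC5B* (chr11:1223066-1262172) had 2155 and 2425 counts in A549 and 124332 and 116520 counts in A549/DDP. Its level was 5.32 and 6.34 TPM in A549 and 385 and 386 TPM in A549/DDP. The fitted log2 fold change was 5.81 (SE 0.20), which is 56.3-fold, and the A549/DDP inputs lay far above those of A549. By counts *MUC5B* ranked 3599 and 3305 among the genes of the A549 inputs and 7 and 12 in the A549/DDP inputs.

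*MUC5AC* (chr11:1157953-1201138) started from a higher level. It had 7154 and 9871 counts in A549, or 18.1 and 26.5 TPM. In A549/DDP it had 120613 and 113337 counts, or 362 and 291 TPM. The log2 fold change was 3.88 (SE 0.21), which is 14.8-fold, again with no overlap. The balance of the gel-forming airway mucins differed between the lines. The TPM of *MUC5AC* over that of *MUC5B* was 3.41 and 4.18 in A549 and 0.94 and 0.753 in A549/DDP. The effective length, by which TPM is scaled, of *MUC5B* was 17802 and 17785 bases in A549 and 16792 and 13412 in A549/DDP. That of *MUC5AC* was 17339 and 17322 bases in A549 and 17329 and 17316 in A549/DDP. The TPM order in A549/DDP rests partly on these lengths, and by counts the 2 genes were close there. The pair of genes held 0.0264% and 0.0356% of all counts in A549 and 0.838% and 0.677% in A549/DDP, where they made up 93.8% and 93.5% of the counts of the 10 genes.

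In the second A549 pair *MUC5AC* had 44 and 44 counts and *MUC5B* had 9 and 13.2. With that pair in place of the first, the log2 fold changes were 5.36 for *MUC5B* and 3.32 for *MUC5AC*, on a scale where the median of all genes was 0.80. Both mucins carry related domains and repeats, so some of their reads could be split between them, and they are uncertain to that extent.

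*MUC2* (chr11:1074874-1110508), the intestinal gel-forming mucin at the other side of *MUC5AC*, stayed low in both lines. It had 116 and 102 counts in A549 and 85 and 99 counts in A549/DDP, or 0.71 and 0.48 TPM against 0.35 and 0.44 TPM. The A549/DDP inputs lay just below those of A549, and the log2 fold change was -0.17 (SE 0.95). The gene on the far side of *MUC2*, the gastric mucin gene *MUC6*, had 21 and 66 counts in A549 and 77 and 62 in A549/DDP, with a log2 fold change of 0.80 (SE 1.35, adjusted p = 0.757, edgeR).

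**Figure D1:**
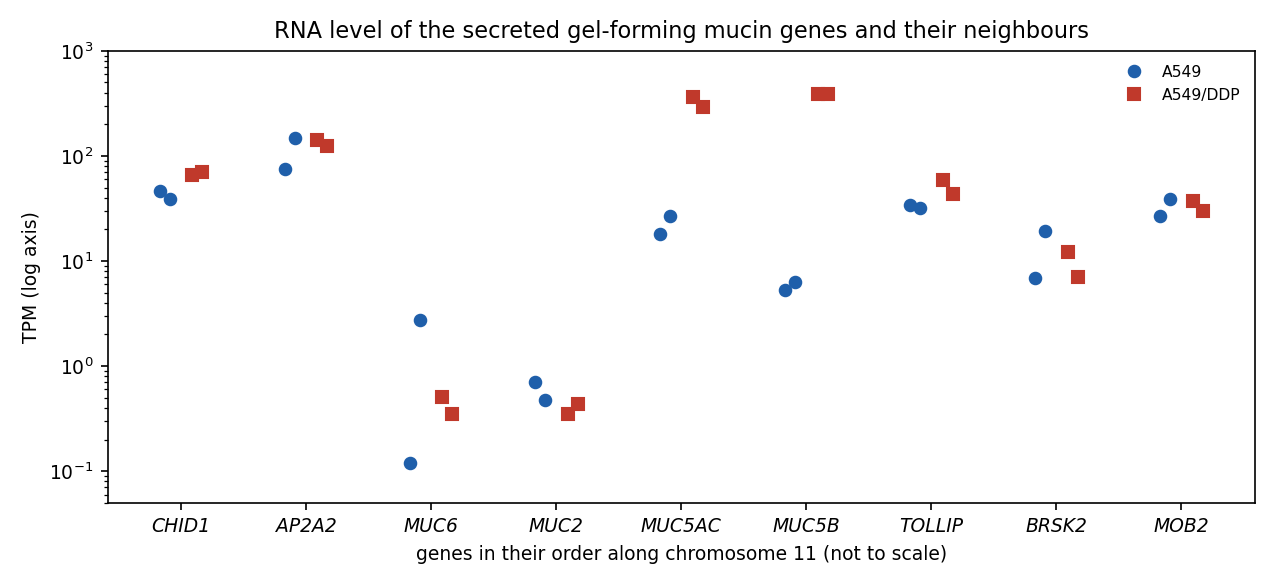
RNA level in TPM (log axis) of *MUC2*, *MUC5AC* and *MUC5B* and the 3 protein-coding genes on either side, in their order on chromosome 11, with 1 point per input library (blue circles A549, red squares A549/DDP). Only *MUC5AC* and *MUC5B* reach 291 to 386 TPM in A549/DDP, while *MUC2* and *MUC6* stay at 2.74 TPM or below in all 4 inputs.

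The genes flanking the mucin cluster, chosen by position after the mucin values were seen, differed less between the lines. On the side of *MUC5B*, *TOLLIP*, an adaptor of interleukin receptor signalling, had a log2 fold change of 0.52 (SE 0.24, adjusted p = 0.195), the kinase gene *BRSK2* one of -0.45 (SE 0.53, adjusted p = 0.642) and *MOB2* one of -0.18 (SE 0.35, adjusted p = 0.797). On the side of *MUC6*, *AP2A2*, a subunit of the clathrin adaptor AP-2, had a log2 fold change of 0.86 (SE 0.24, adjusted p = 0.0663). *CHID1*, a chitinase-domain protein, passed the threshold of an adjusted p of 0.05 with a log2 fold change of 1.11 (SE 0.25, adjusted p = 0.0371). All 5 tests are from the edgeR fit over 16406 genes. A gene antisense to *MUC5B*, *MUC5B-AS1* (chr11:1242261-1249676), had 8.3 counts in the first A549 input and 0 in the other A549 input and both A549/DDP inputs. Libraries were stranded, but whether the counting used the strand is not given in the sources used here, so reads of the antisense gene cannot be told apart from those of *MUC5B*.

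*MUC13* (chr3:124905442-124934751, minus strand) was the membrane mucin that differed most clearly. It had 784 and 519 counts in A549, or 12.4 and 8.77 TPM, and 3464 and 3466 counts in A549/DDP, or 65.2 and 56.0 TPM. The groups did not overlap, and the log2 fold change was 2.49 (SE 0.30), which is 5.62-fold. Its promoter window (chr3:124934752-124935001) is shown because among the 7 genes with a window it is the only one with the core of a cAMP response element, TGACGTCA, the kind of element that CREB-family factors bind. Capitals mark that core, which reads the same on both strands and is present in 1.65% of all 35116 windows.
MUC13: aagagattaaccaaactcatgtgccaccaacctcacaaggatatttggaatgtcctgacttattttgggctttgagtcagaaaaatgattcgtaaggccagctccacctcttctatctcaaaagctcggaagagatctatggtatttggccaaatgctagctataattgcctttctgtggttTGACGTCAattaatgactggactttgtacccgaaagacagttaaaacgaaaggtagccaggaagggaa
The shorter core TGACG, which lies within the longer one on each strand, was present in 21.2% of all windows.

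*MUC1* (chr1:155185824-155192915, minus strand) did not separate the lines. It had 156 and 160 counts in A549 and 379 and 107 in A549/DDP. Its level was 9.98 and 8.59 TPM in A549 against 16.2 and 3.74 TPM in A549/DDP, so the A549/DDP inputs lay on either side of those of A549. The log2 fold change was 0.78 (SE 0.84), it was -0.61 without the first A549/DDP input, and on log2(TPM + 1) it was -0.18. The effective length of the gene was 687 and 867 bases in A549 and 1214 and 1270 in A549/DDP. The longer length lowers TPM relative to counts in A549/DDP.

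*MUC16* (chr19:8848844-9065751, minus strand), which carries the CA125 antigen, had 4 and 39 counts in A549 and 182 and 87 counts in A549/DDP. The counts of the A549/DDP inputs were above those of A549, with a log2 fold change of 2.81 (SE 1.48), which was 5.09 without the second A549 input. Its TPM did overlap, at 0.03 and 0.25 in A549 and 0.22 and 0.09 in A549/DDP. The scales part because the authors' effective length of the gene, the length of the transcripts to which its reads were assigned, was 5294 and 7338 bases in the A549 inputs and 43482 and 43684 bases in the A549/DDP inputs. Reads were thus assigned to short transcripts in A549 and to long transcripts in A549/DDP, at counts too low in A549 for a firm statement on isoforms.

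*AGR2* (chr7:16791811-16804999, minus strand) was the most abundant of the 10 genes per length in both lines. It had 2196 and 1152 counts in A549, or 115 and 73.0 TPM, and 11073 and 10812 counts in A549/DDP, or 692 and 554 TPM. The groups did not overlap. The log2 fold change was 2.78 (SE 0.36), which is 6.89-fold, and it ranged from 2.34 to 3.38 when either A549 input was left out. In the second A549 pair *AGR2* was at 14.1 and 4.82 TPM, from 10 and 9 counts.

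*TFF3* (chr21:42311667-42315409) had 0 counts in both A549 inputs and 2 and 0 counts in the A549/DDP inputs. These are at or below the floor of 3 counts, so no fold is given and the gene did not pass the filter on low counts.

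**Figure D2:**
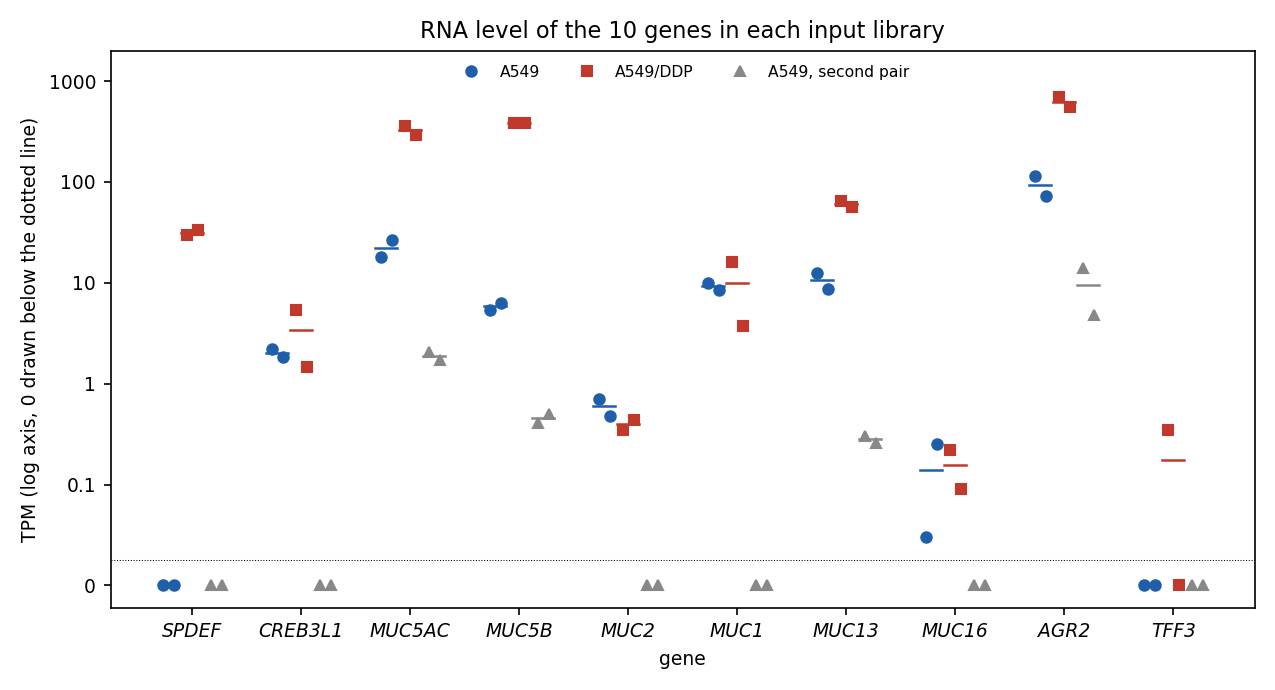
RNA level in TPM (log axis, with 0 drawn below the dotted line) of the 10 genes in each input library. Blue circles are A549, red squares A549/DDP and grey triangles the second A549 pair, with a bar at the mean of each pair where it is above 0. *SPDEF* is at 0 in all 4 A549 libraries and at 29.9 and 33.2 TPM in A549/DDP, and *MUC5AC*, *MUC5B*, *MUC13* and *AGR2* lie above A549, while *CREB3L1*, *MUC1* and *MUC16* overlap.

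In all, 9 of the 10 genes passed the filter on low counts, and *SPDEF* passed it only through the A549/DDP inputs. The edgeR fit over all 16406 genes put 14.9% past an adjusted p of 0.05, 6.85% higher and 8.00% lower in A549/DDP. It put 5 of the 9 there, *SPDEF*, *MUC5B*, *MUC5AC*, *MUC13* and *AGR2*, all higher in A549/DDP. Since the set was chosen on this contrast, that count is no test of the genes and nothing is read from it. In TPM the same 5 genes had both A549/DDP inputs above both A549 inputs, as did 28.2% of all genes tested, and *MUC2* had both below, as did 30.3%. The median log2 fold change of the 9 genes was 2.78 with *SPDEF* at its bound, and 2.64 over the 8 others, beside -0.00 over all genes tested.

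The genes whose level over the 4 inputs was most like that of *SPDEF*, by Euclidean distance of log2 CPM, were *NALF1* (distance 0.69), an identifier without a symbol (1.01), *STX16-NPEPL1* (1.36), *BCL2L2-PABPN1* (1.57) and *VIL1* (1.60). The first 4 of these had 0 counts in both A549 inputs. *NALF1*, an auxiliary subunit of a sodium leak channel, had 948 and 820 counts in A549/DDP. *STX16-NPEPL1* and *BCL2L2-PABPN1* are readthrough genes that share sequence with the single genes they join, so their counts are uncertain. *VIL1*, which encodes villin, an actin-bundling protein of the brush border, had 1 count in each A549 input and 523 and 666 in A549/DDP.

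*VIL1* is also a marker of gut epithelium, and that marker list moved with the secretory genes. Of its 6 genes 5 were tested, and 3 rose in A549/DDP, where 6.85% of all genes rose. *CDH17*, the liver-intestine cadherin, had 409 and 356 counts in A549 and 2181 and 2751 in A549/DDP (log2 fold change 2.76, SE 0.25, adjusted p = 0.00349). *VIL1* (adjusted p = 0.00295) and *LGALS4*, a galectin of the intestinal surface (adjusted p = 0.0211), passed the filter only through A549/DDP. Their calls, and the count of 3 that holds them, are therefore a description. The ratio of A549/DDP to A549 counts per library total was 657 for *VIL1*, with an exact 95% counting interval of 182 to 5433. For *LGALS4*, with 5 and 3 counts in A549 and 184 and 299 in A549/DDP, it was 66.7, with an interval of 33.6 to 155.5. Both intervals cover counting error of the pooled counts alone. They leave out the spread between libraries, so they are too narrow for the contrast of the lines. With the second A549 pair 1 of 4 tested genes was called, and with at least 10 counts in every library 1 of 1. Of the defining factors, *CDX1* had 0 counts in the 4 inputs, while *CDX2* had 12 and 0 counts in A549 and 200 and 173 in A549/DDP, with an adjusted p of 0.126. The summed level of the 6 genes was 9.36 and 8.02 TPM in A549 and 93.7 and 85.4 TPM in A549/DDP. Its part in the levels of the mucins was not tested.

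The wider secretory pathway was followed in 6 lists of 165 other genes, of which 120 were tested. Of these, 36 rose and 7 fell in A549/DDP, or 35.8% against 14.9% of all genes. The median log2 fold change was 0.72 against -0.00 over all genes. The lists were chosen with earlier results of these data known, so these counts and those of the single lists are a description. The rises include *TFF1* and *ST6GALNAC1*, which passed the filter on low counts only through A549/DDP. The total of calls depended on the libraries and the unit. It was 12 with both A549 pairs and 22 to 25 with limma on log2 TPM.

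None of the other mucin genes that were tested was called. Of 16 genes 6 were tested, and 0 were past the threshold with edgeR, DESeq2 or limma. At an unadjusted p under 0.05 in edgeR there were also 0. With 14.9% of all genes called in edgeR, a count of 0 among 6 is near that share, so nothing is read from it. *MUC6*, *MUC12*, *MUCL3* and *OVGP1* were at a few CPM, with SEs of 1.35, 1.00, 1.95 and 1.17. *CD164*, a sialomucin of the cell surface, was at 84.5 and 61.2 CPM in A549 and 72.0 and 73.6 CPM in A549/DDP (log2 fold change -0.00, SE 0.22), and *MUC3A*, a membrane mucin of the gut, at 10.9 and 8.07 CPM against 10.96 and 6.45 CPM. *MUC4*, *MUC15* and *MUC20* were among the 10 genes that did not pass the filter on low counts.

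Regulators of secretory cell fate changed in both directions. Of 25 tested genes 7 rose and 4 fell (44.0%, against 14.9% of all genes), with between 5 and 14 called over all alternatives. The ETS factor *EHF*, expressed in secretory epithelia, was at 1.85 and 5.42 CPM in A549 and 56.6 and 63.7 CPM in A549/DDP (log2 fold change 4.04, SE 0.55, adjusted p = 0.00899), and its log2 fold change was 5.001 without the second A549 input. *NOTCH3*, a receptor of the pathway that sets secretory against ciliated fate in the airway, was at 10.7 and 31.0 CPM in A549 and 248 and 232 CPM in A549/DDP (log2 fold change 3.52, SE 0.50, adjusted p = 0.0101), with 4.47 without the second A549 input. *HNF4A*, a nuclear receptor of liver and gut epithelium, rose by 2.75 on the log2 scale (SE 0.24, adjusted p = 0.00318). In the other direction, the Notch ligand *JAG1* fell from 430 and 609 CPM to 120 and 127 CPM (log2 fold change -2.07, SE 0.22, adjusted p = 0.00459). *GATA6*, a factor of endoderm-derived epithelium, fell by 3.51 (SE 0.85, adjusted p = 0.0439), a call that was lost under 4 alternatives and a value that was -5.25 without the first and -2.75 without the second A549/DDP input. *ERN1*, the ER stress sensor IRE1 alpha, fell by 1.76 (SE 0.25, adjusted p = 0.00980). The other called rises in the edgeR fit were *HES1* (2.36, adjusted p = 0.021), *FOXA1* (1.70, 0.0227), *ELF3* (1.24, 0.0098) and *IL4R* (1.13, 0.0374). The other called fall was *NOTCH2* (-0.80, adjusted p = 0.033). *FOXA2*, *XBP1* and *KLF4*, known regulators of goblet or secretory cells, had log2 fold changes of 0.09 (SE 0.27), 0.05 (SE 0.21) and -0.33 (SE 0.27). They were among the genes not called, as was *FOXA3* (1.12, SE 0.61).

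The ER folding and export genes leaned one way. Of 34 tested genes 14 rose and 0 fell in the edgeR fit (20 higher and 0 lower at an unadjusted p under 0.05, and 19 and 0 past the threshold with DESeq2), where 6.85% of all genes rose, and the median log2 fold change was 0.72. *P4HB*, a protein disulfide isomerase, was at 622 and 578 CPM in A549 and 1740 and 1523 CPM in A549/DDP (log2 fold change 1.44, SE 0.15, adjusted p = 0.00486). *KDELR3*, a receptor that returns ER proteins from the Golgi, was at 4.29 and 4.97 CPM against 48.7 and 35.8 CPM (log2 fold change 3.19, SE 0.35, adjusted p = 0.00520). *SEC16B*, a scaffold of ER exit sites, rose by 3.40 (SE 0.78, adjusted p = 0.0385), with 2.68 without the first and 4.81 without the second A549 input. The count of rises dropped to 4 without the first A549/DDP input, to 6 without the second and to 2 with both A549 pairs.

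Among enzymes of mucin-type O-glycosylation 5 of 25 tested genes rose and 1 fell (24.0%, against 14.9% of all genes). Among the rises, the sialyltransferase gene *ST6GALNAC1* had 0 counts in both A549 inputs and passed the filter only through A549/DDP. Its call, and the count of 5 and the share of 24.0% that hold it, are therefore a description. *GALNT4* and *GALNT7* encode transferases of the family that adds the first O-linked sugar. *GALNT4* was at 10.2 and 6.66 CPM in A549 and 51.2 and 38.3 CPM in A549/DDP (log2 fold change 2.41, SE 0.36, adjusted p = 0.0112). That call was lost under 4 alternatives, and the value was 1.10 with the second A549 pair. *GALNT7* rose by 1.28 (SE 0.18, adjusted p = 0.0104). *GALNT11*, a further transferase of the family, rose by 1.02 (SE 0.25, adjusted p = 0.0466), a call that was lost under 7 alternatives. *ST3GAL1*, which caps the O-linked core with sialic acid, fell by 2.06 (SE 0.26, adjusted p = 0.00728), but was 0.28 higher on the log2 scale in A549/DDP with the second A549 pair. The rises numbered 2 without the second A549/DDP input and 0 with both A549 pairs.

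Other products of secretory cells had the highest median of the 6 secretory lists. Of 30 genes 8 were tested, of which 6 rose and 0 fell in the edgeR fit, where 6.85% of all genes rose. The counts were also 6 and 0 at an unadjusted p under 0.05 and with DESeq2, and the median log2 fold change was 4.01. *FCGBP*, a mucus protein that binds mucins, was at 8.75 and 5.11 CPM in A549 and 249 and 222 CPM in A549/DDP (log2 fold change 5.09, SE 0.32, adjusted p = 0.00174). *S100P*, a calcium-binding protein, was at 4.95 and 2.57 CPM against 109 and 91.5 CPM (log2 fold change 4.74, SE 0.39, adjusted p = 0.00295), and *SLPI*, a secreted protease inhibitor, rose by 4.27 (SE 0.61, adjusted p = 0.0102), with 5.21 without the first A549 input. The trefoil gene *TFF1* had 0 counts in both A549 inputs and passed the filter only through A549/DDP. Its call, and the count of 6 and the median that hold it, are therefore a description. The airway secretory cell products *SCGB1A1*, *SCGB3A1* and *BPIFB1* did not pass the filter on low counts. Between 5 and 6 genes of the list were called under every alternative.

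Genes of granule exocytosis and ion transport were mixed, with 4 of 22 tested genes higher and 2 lower (27.3%, against 14.9% of all genes). The small GTPase genes *RAB3D* (log2 fold change 2.15, SE 0.48, adjusted p = 0.0339, and 2.88 without the second A549 input) and *RAB27B* (1.77, SE 0.34, adjusted p = 0.0233), which act in granule docking, rose, and so did *SLC12A2*, the basolateral chloride cotransporter of secretory cells (2.15, SE 0.29, adjusted p = 0.00885). *KCNMA1*, a potassium channel gene, fell by 1.63 (SE 0.28, adjusted p = 0.0165) and the vesicle SNARE gene *VAMP2* fell by 0.91 (SE 0.20, adjusted p = 0.0349). The call of *VAMP2* was lost under 5 alternatives, among them leaving out either A549/DDP input, and that of *KCNMA1* under 4. No gene of this list was called with both A549 pairs in the edgeR fit, and with limma on log2 TPM 1 rose.

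**Figure D3:**
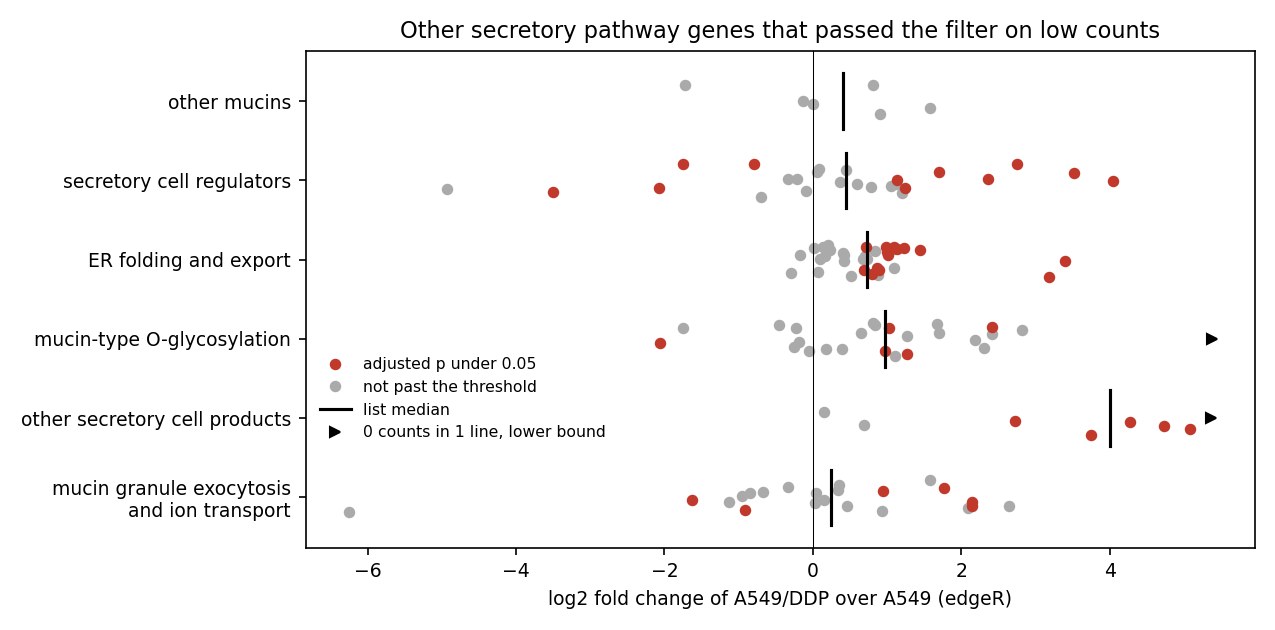
Log2 fold change of A549/DDP over A549 (edgeR) for the tested genes of the 6 lists of other secretory pathway genes, 1 point per gene. Red points are past an adjusted p of 0.05, grey points are not, black bars are list medians, and 2 black arrowheads are *ST6GALNAC1* and *TFF1*, with 0 counts in both A549 inputs, drawn at a lower bound against 3 counts per library. The products of secretory cells lie furthest to the right, with a median of 4.01.

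In the m6A peak lists 6 of the 10 genes were named in at least 1 list. The lists held 26320 and 14576 peaks for A549 and 27244 and 10661 for A549/DDP, give no read depth, and were called by the authors in each library. *MUC5B* and *MUC5AC* had a peak in both A549 lists, and *MUC5B*, *AGR2* and *SPDEF* in both A549/DDP lists. Among genes with a mean of at least 1 TPM in the line, 47.2% and 33.4% had a peak in the A549 lists and 44.0% and 23.9% in the A549/DDP lists. These shares are for single lists. The share of genes with a peak in both lists of a line was not computed, so nothing is read from these counts. No peak was listed for *MUC2*, *MUC16*, *CREB3L1* or *TFF3*, whose RNA was at 5.34 TPM or below in the 4 inputs.

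*MUC5B* was among the genes with the most peaks in every list. It had 16 and 15 peaks in the A549 lists and 20 and 20 in the A549/DDP lists, covering 5916, 5065, 5619 and 7220 bases. That placed it 12 and 6 in order of peaks per gene in A549 and 3 and 1 in A549/DDP. This order was not corrected for length, and *MUC5B* is long, with an effective length of 17802 and 17785 bases in the A549 inputs. Most of these peaks lay within 1 exon block, and their centres fell between 46.4% and 86.7% of the way from the start of the gene to its end. Both airway mucins have a very large central exon that encodes the repeats, but no exon annotation was used here to place the peaks in it.

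Merged over the 4 lists, the *MUC5B* peaks formed 13 regions, of which 9 were called in all 4 lists. The longest run from chr11:1250167 to 1254310 and from chr11:1246367 to 1247567 and covered 2150 and 1201 bases. Of the 4 other regions, 1 was called in both A549/DDP lists and in neither A549 list (chr11:1247867-1248067). Between the A549 replicates 67.1% and 78.3% of the peak bases of each list were shared, and between the A549/DDP replicates 75.1% and 58.5%. Shared bases over all bases covered by either list came to 0.566 between the A549 replicates and 0.490 between those of A549/DDP. Across the lines the 4 such values ran from 0.413 to 0.570, and 3 of them were below both replicate values. All 4 lists had 2318 bases in common.

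The deposited p-values of these peaks were modest in some lists. They lay between 0.00011 and 0.0004 in the first A549 list, where the median over all peaks was 5.9e-06, and between 1.2e-07 and 1.8e-06 in the second, where it was 8.7e-05. In A549/DDP they lay between 0.00083 and 0.027 in the first list, with a median over all peaks of 2.1e-06, and between 6.9e-06 and 0.00071 in the second, with one of 1.7e-05. With peaks limited to a p-value of 1e-05 or below, *MUC5B* kept 0, 15, 0 and 3 peaks in the 4 lists. Its peaks overlapped the span of *MUC5B-AS1* 12 to 14 times per list. They were taken by the name of *MUC5B*, so their plus strand says nothing of the antisense gene. From the start of *MUC5AC* to the end of *MUC5B*, peaks on the minus strand numbered 0 and 0 in the A549 lists. In the A549/DDP lists they numbered 0 and 1.

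**Figure D4:**
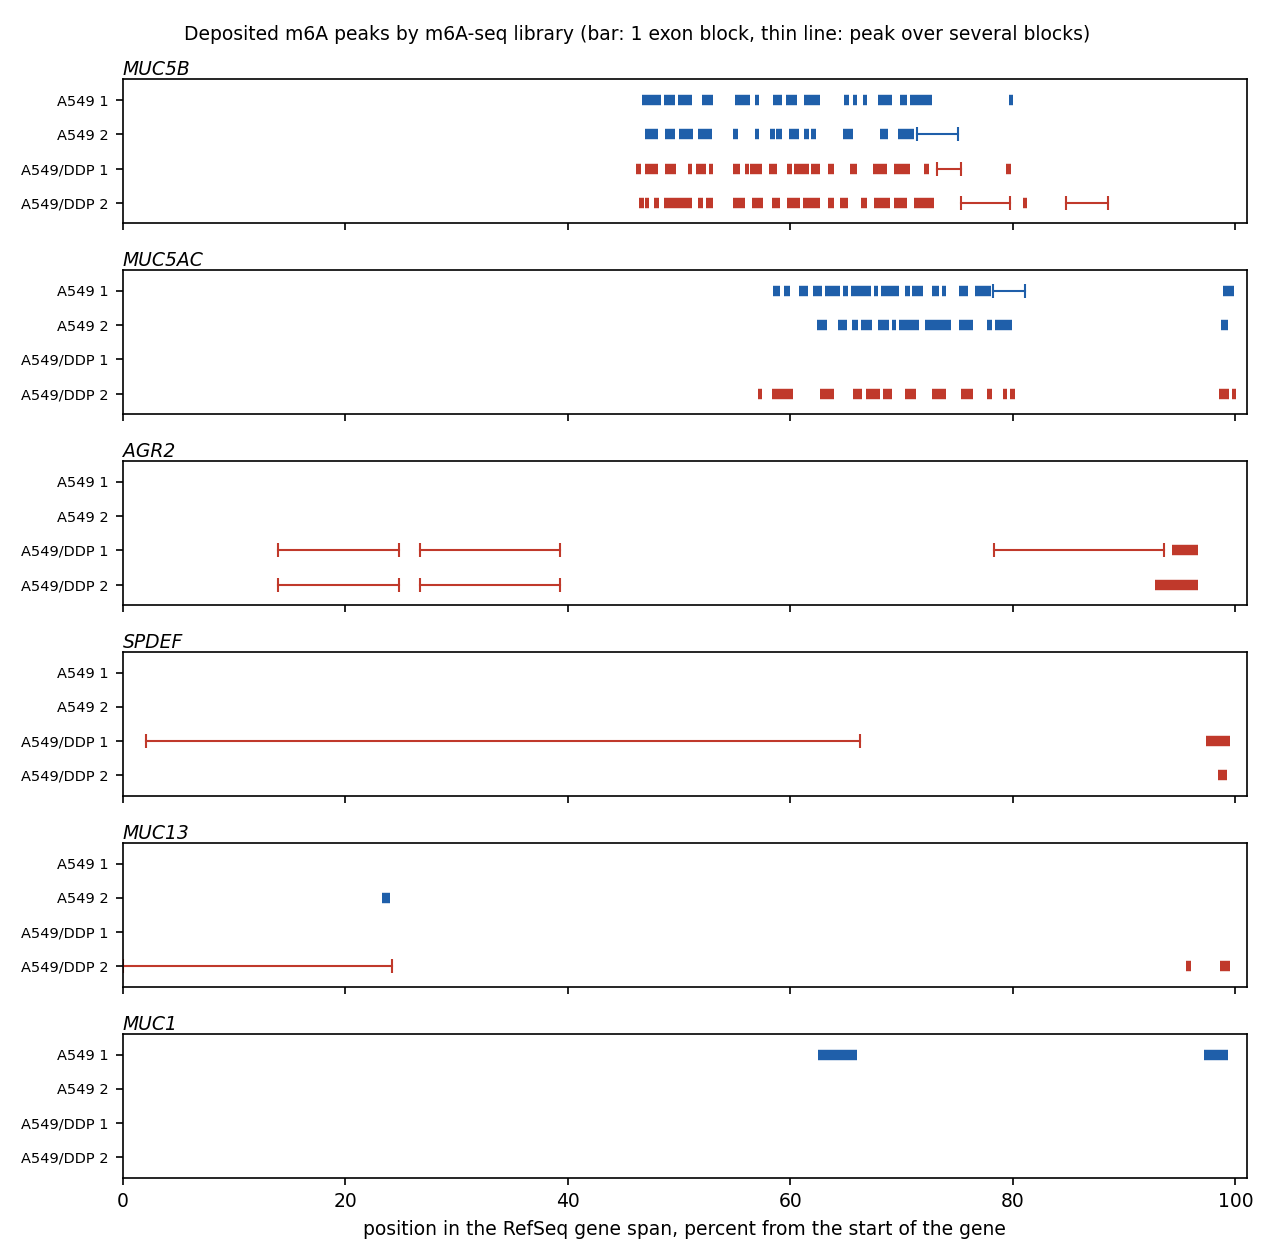
Position of the deposited m6A peaks in the 6 genes with a peak, as percent of the RefSeq gene span from the start of the gene, with 1 row per m6A-seq library (blue A549, red A549/DDP). Thick bars are peaks of 1 exon block and thin lines join the ends of peaks over several blocks. *MUC5B* has 15 to 20 peaks in every row, *MUC5AC* has 0 in the first A549/DDP row, and *AGR2* and *SPDEF* have peaks in the A549/DDP rows only.

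*MUC5AC* had 17 and 12 peaks in the A549 lists and 14 in the second A549/DDP list, but 0 in the first, although its RNA was at 120613 counts in the first A549/DDP input. The lists of A549/DDP thus went apart on this gene. The 10 merged regions included 7 called in the 3 other lists, and 1 region at the end of the gene (chr11:1200488-1201138) stood apart from the rest, whose centres lay between 57.2% and 79.7% of the span. The p-values ranged from 1.9e-05 to 0.014 over the lists, and no *MUC5AC* peak was at 1e-05 or below.

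*AGR2* was listed in A549/DDP and not in A549. It had 4 and 3 peaks in the A549/DDP lists, covering 953 and 852 bases, of which 753 were shared. Its p-values were listed as 0 in the first and lay between 7.2e-08 and 9.5e-06 in the second. The peaks merged into 3 regions, all called in both A549/DDP lists and in neither A549 list: 1 toward the end of the gene (chr7:16792260-16794675) and 2 over several exon blocks nearer its start (chr7:16799813-16801476 and chr7:16801725-16803166). *AGR2* had 115 and 73.0 TPM in A549 with 0 peaks, while of genes with 10 to 100 TPM on average 59.3% and 43.5% had a peak in the A549 lists. Its own RNA was 6.89-fold higher in A549/DDP, and the part of RNA level in whether a peak was called was not tested.

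*SPDEF* had 2 and 1 peaks in the A549/DDP lists, covering 837 and 148 bases. The 148 bases of the second list lay whole within a peak of the first, in a region close to the end of the gene (chr6:34537900-34538293). Their p-values, between 0.0062 and 0.015, were above the medians of these lists, 2.1e-06 and 1.7e-05, and the highest p-values listed were 0.03 and 0.016. In A549, where the RNA was at 0 counts, no peak was listed.

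For the membrane mucins the peaks did not recur between replicates. *MUC13* had 1 peak in the second A549 list (p-value 0.0068) and 3 in the second A549/DDP list (p-values between 1.9e-08 and 5.2e-07), and 0 in the other lists of both lines. The single A549 peak fell within 1 of those of A549/DDP. *MUC1* had 2 peaks in the first A549 list (p-values 2.8e-07 and 8.7e-05) and 0 in the other 3 lists. Over the 6 genes there were 33 merged regions, 9 called in all 4 lists, 5 in both A549/DDP lists only and 0 in both A549 lists only. Of the 5, 3 were in *AGR2* and 1 each in *SPDEF* and *MUC5B*, all genes with more RNA in A549/DDP. The same shares over the regions of all genes were not computed, so nothing is read from this split. The part of RNA level in it was not tested.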

How the data were processed

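RNA of A549 and A549/DDP cells was followed in 2 input and 2 m6A-seq libraries per line, with a second pair of A549 inputs. The sample labels gave the groups. File names and labels number the A549 m6A-seq replicates the opposite way round, and the numbers here are those of the labels. The labels do not say that replicates were separate cultures, so p-values measure the spread between these libraries, which may be technical.

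The deposited expected counts are estimates per gene, not normalized, in the layout of RSEM. The authors also deposited TPM and FPKM, which correct for length and depth, and FPKM was not used. STAR, RSEM, bedtools and the build hg38 are named in the submitters' processing notes. The peak lists deposited by the authors give a p-value, strand and exon blocks for each peak; whether that p-value is adjusted, and the peak caller, are not given in the sources used here.

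Of the 58037 identifiers, 56993 were matched to a symbol. After rounding of expected counts and the filterByExpr filter, TMM factors were computed and the quasi-likelihood test of edgeR 4.0.16 was run in R 4.3.3. Its p-values were adjusted by the Benjamini-Hochberg method across 16406 genes, with 0.05 as threshold. SE is the log2 fold change over the square root of edgeR's F. CPM are TMM-normalized, except for the *SPDEF* bound, which uses library totals. The common biological coefficient of variation was 0.656. The fit was also run on simulated data with 200 genes changed. Those data had a lower dispersion than the real libraries, so that run does not show how the fit performs here. DESeq2 1.42.0 and limma 3.58.1 were alternatives. Peaks with any exon base in common on one strand were merged into a region. Positions are counted from 1. Promoter windows are from RefSeq (GRCh38.p14), with 9 windows for 7 of the 10 genes. Python 3.11.15, numpy 2.4.6, pandas 2.3.3 and matplotlib 3.10.9 were used.

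The 10 genes and the lists were chosen with earlier results of these data known. All 10 were named. Of each other list up to 3 genes with the highest and 3 with the lowest log2 fold change were named, among those past the threshold with a mean of at least 5 CPM, with the 5 genes nearest to *SPDEF*. Genes named beyond this rule (flanking genes, marker genes and further list genes, called or not) were chosen after their values were seen. The replicate numbers were not used to pair the inputs in the main fit, and the correlation of deviations was 0.0259 over 2 pairs. In both lines replicate 1 had more genes with a count, at 19263 against 17392 in A549 and 18304 against 15830 in A549/DDP. A batch shared by replicate number was not tested. No value column was left unmapped.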

Additional observations from a re-analysis of the deposited data

How the results depend on the processing

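As a description, since the 10 genes were chosen on this contrast, 5 of them were past the threshold under each alternative run except with at least 10 counts in every library, where *SPDEF* was not tested and 4 were. Beside 2437 genes called in all, DESeq2 called 4234, no filter beyond 1 count 4010, limma on log2(TPM + 1) 1492 and on log2(TPM + 0.1) 1177, the second A549 pair in place of the first 3758 and both pairs 677. Leaving out 1 input gave between 2052 and 3809, with a line of 1 library assumed to vary like the other. The total of called genes in the secretory lists was 43, and it was 25 and 22 with limma, 12 with both A549 pairs and between 28 and 53 on leaving out 1 input. Adding the replicate number as a block gave 3536 genes, 52 in the lists and 5 of the 10. Whether the numbers mark a shared batch was not tested. *ST3GAL1* turned from lower to 0.28 higher with the second pair. The cause was not tested.

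Peak results rested on the thresholds. With p-values at or below 1e-05, 0 genes had a peak in both A549 lists, 1 in both A549/DDP lists, and the peaks formed 20 regions, 0 of them in all 4 lists. With lists of 10661 peaks each the counts were 0 and 1 genes and 0 regions in all 4 lists. Requiring an overlap of 50% gave 43 regions, 11 of them in all 4 lists. Leaving out 1 list gave 3 genes for A549 and 3 to 5 for A549/DDP. Lists of equal size and RefSeq spans for regions were chosen after the data were seen. The depth of the m6A-seq libraries is unknown, and the second A549 pair is too shallow to show low genes.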
